A study of Mus musculus with 8 samples.

Results

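The genes of nitric oxide (NO) and arginine metabolism were followed in mouse lung during lipopolysaccharide (LPS) challenge with or without tangeretin. The set was chosen by name and by function, and held 10 of the 24584 genes in the deposited tables, namely Slc7a2, Ass1, Asl, Nos2, Gch1, Arg1, Arg2, Odc1, Ddah1 and Ddah2. All 10 were found and all 10 passed the filter on low counts. Lung RNA came from male ICR mice, an outbred stock, aged 6 to 8 weeks and carrying no engineered allele. In the LPS group (n = 4) the mice received 5 mg/kg LPS, the endotoxin of Escherichia coli that is used to model septic lung injury, by intraperitoneal injection. In the LPS + Tan group (n = 4) the mice received 50 mg/kg tangeretin, a polymethoxylated flavonoid of citrus peel, 30 min before the same dose of LPS. Lungs were taken 12 h after LPS in both groups. Every sample was therefore LPS-treated, and neither untreated lung nor lung given tangeretin alone was analysed here, so that the comparison addresses only what tangeretin added to LPS. The labels do not say that the samples of a group came from separate mice, so the p-values measure the spread between these samples.

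Arginine is the shared substrate of competing enzymes. It enters the cell through cationic amino acid transporters such as Slc7a2 and can be regenerated from citrulline by argininosuccinate synthase (Ass1) and argininosuccinate lyase (Asl). Inducible NO synthase (Nos2), which depends on the cofactor tetrahydrobiopterin made by a pathway that Gch1 opens, converts arginine to NO and citrulline, whereas the arginases Arg1 and Arg2 convert it to ornithine and urea, and ornithine decarboxylase (Odc1) takes ornithine into polyamines. Methylarginines released from proteins inhibit NO synthases and are broken down by dimethylarginine dimethylaminohydrolase, the enzyme family for which Ddah1 and Ddah2 are named. In macrophages Nos2 is a classic marker of activation by LPS and interferon, and Arg1 is a classic marker of alternative activation.

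The libraries were of nearly equal depth, with 38895654 to 39931970 counted reads in the LPS group and 39039693 to 39629332 in the LPS + Tan group. No pair of samples within a group agreed within sampling noise. Lung identity was clear, since the summed level of 5 alveolar type 2 markers was 6597 to 11351 CPM whereas that of 4 hepatocyte markers was 2.65 to 6.99 CPM, with 3 of the 4 hepatocyte markers below 1 CPM in mean. CPM values are counts divided by library size after scaling by the trimmed mean of M-values (TMM), and compare 1 gene between samples. Because unsorted lung tissue was sequenced, fewer cells of a type and less RNA per cell cannot be told apart. Differences are log2 fold changes of LPS + Tan against LPS with their standard error (SE), tested with the edgeR quasi-likelihood test and Benjamini-Hochberg adjustment over 15706 genes.

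Ddah2 was higher, and Nos2 and Slc7a2 were lower, in the LPS + Tan group before adjustment for multiple tests, and no member passed that adjustment. At an unadjusted p below 0.05 in edgeR, 1 of 10 members was higher and 2 of 10 were lower, where 2.87% of all tested genes were higher and 2.25% were lower. After adjustment in edgeR 0 of 10 members and 0 of all tested genes were called (0.0%), although 804 genes had an unadjusted p below 0.05. DESeq2 called 35 genes (0.143%) and the edgeR likelihood ratio test called 23 (0.146%), and neither called a member. With single samples left out, the count of lower members at unadjusted p was 1 without LPS replicate 2, 3 or 4 or LPS + Tan replicate 1 or 4, where 1.91%, 1.71%, 2.0%, 1.33% and 4.56% of genes were lower. It was 0 without LPS + Tan replicate 3 (1.88% of genes) and 3 without LPS + Tan replicate 2 (5.06% of genes). The count of higher members was 2 without LPS replicate 1 (3.1% of genes). The median log2 fold change of the 10 members was 0.035 and that of all tested genes was 0.0070. Neither did any member combine an unadjusted p under 0.05 with a difference of more than 1 on the log2 scale, which 102 genes (0.649%) did. The groups did not overlap in CPM for Ddah2 alone of the 10 members, and for 2.73% of tested genes in either direction. No member was lower without overlap, as 1.15% of tested genes were.

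**Figure D1:**
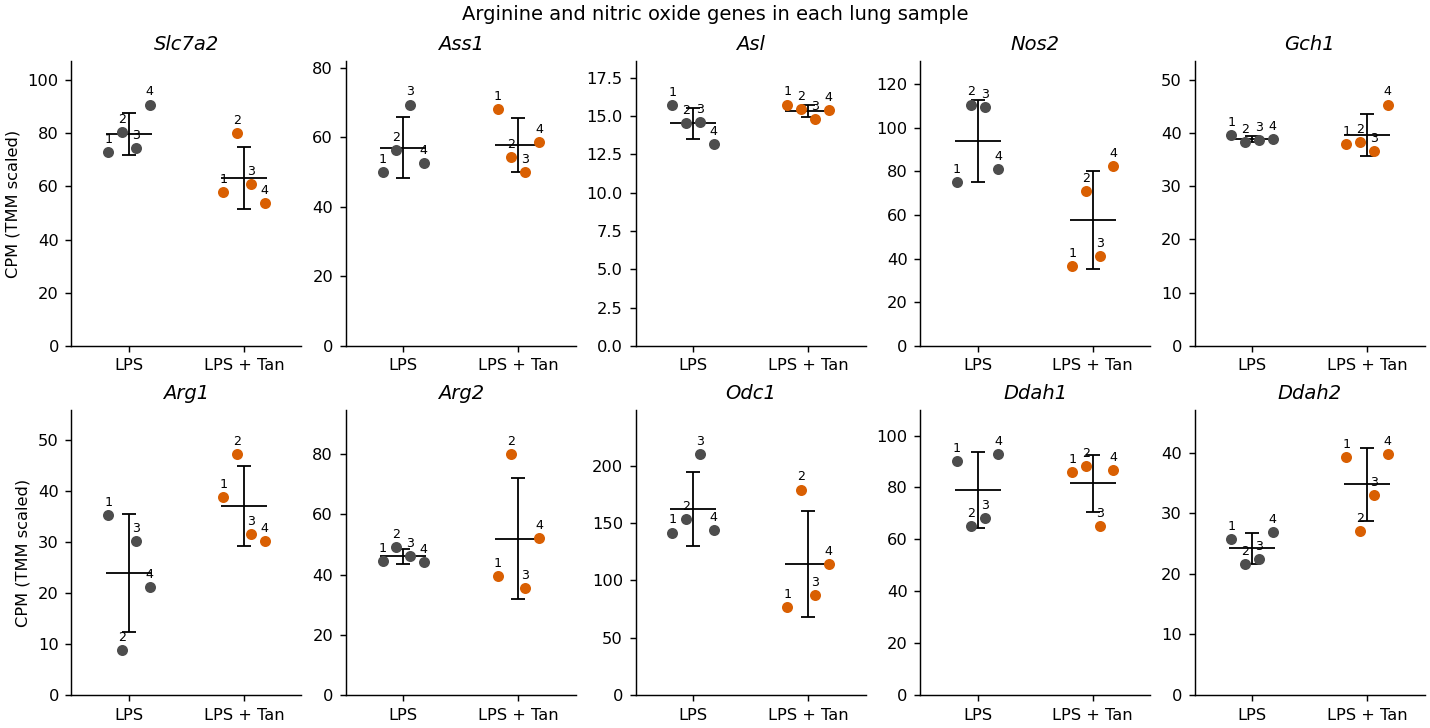
CPM (TMM scaled, vertical axes from 0) of the 10 members in each of the 4 LPS and 4 LPS + Tan samples, 1 panel per gene, with each point a sample and the line at the group mean. The groups overlap in all panels but that of Ddah2, where the LPS samples lie at or below 27.0 and the LPS + Tan samples at or above 27.1.

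Arginine supply was considered first. Slc7a2, the inducible cationic amino acid transporter that brings arginine into activated macrophages (chr8:40862396-40922308, plus strand), was measured at 73.1, 80.4, 74.4 and 90.8 CPM in LPS replicates 1 to 4 and at 58.0, 79.9, 60.8 and 53.8 CPM in LPS + Tan replicates 1 to 4. Of the LPS + Tan samples, 3 lay below every LPS sample, and replicate 2 alone lay among them. Mean Slc7a2 was 79.7 ± 8.06 CPM with LPS and 63.1 ± 11.5 CPM with LPS + Tan (SD, n = 4 each). The log2 fold change was −0.34 (SE 0.13, 95% interval −0.62 to −0.049), with an unadjusted p of 0.0262 and an adjusted p of 0.924 in edgeR. This difference had an unadjusted p below 0.05 in 12 of 19 alternative analyses and the same direction in all of them. An exon of Slc7a2 overlaps one of a long noncoding RNA gene, Gm26584, on the opposite strand, and none of the sources used here says whether the counting used strand.

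The enzymes that rebuild arginine from citrulline differed little between the groups. Ass1 (chr2:31470207-31520672, plus strand) was measured at 49.9, 56.3, 69.4 and 52.5 CPM in the LPS samples and at 68.0, 54.4, 50.1 and 58.7 CPM in the LPS + Tan samples. These ranges nearly coincide, and the log2 fold change was 0.02 (SE 0.13, 95% interval −0.26 to 0.30, edgeR adjusted p = 0.998). Asl (chr5:130011258-130029247, minus strand) lay at 15.7, 14.6, 14.6 and 13.2 CPM with LPS and at 15.7, 15.4, 14.8 and 15.4 CPM with LPS + Tan. The spread of Asl was among the smallest of the members, at 14.5 ± 1.03 against 15.3 ± 0.404 CPM (SD, n = 4 each), and its log2 fold change was 0.08 (SE 0.091, 95% interval −0.12 to 0.28, edgeR adjusted p = 0.967). The Asl value was 0.037 without LPS replicate 4 and 0.12 without LPS replicate 1. The intervals of both genes thus lay within −0.26 to 0.30 on the log2 scale.

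Nos2, the inducible NO synthase that produces the bulk of NO in inflamed tissue (chr11:78920787-78960254, plus strand, 27 exons), was lower in mean with tangeretin. It was measured at 74.9, 111, 109 and 81.1 CPM in the LPS samples and at 36.6, 71.0, 41.4 and 82.6 CPM in the LPS + Tan samples. LPS + Tan replicates 1, 2 and 3 lay below every LPS sample, and replicate 4 lay above LPS replicates 1 and 4. Mean Nos2 was 94.0 ± 18.6 CPM (SD, n = 4) with LPS and 57.9 ± 22.4 CPM (SD, n = 4) with LPS + Tan, a fitted fold of 0.616 (95% interval 0.415 to 0.914). On the log2 scale the difference was −0.70 (SE 0.26), with an unadjusted p of 0.0211 and an adjusted p of 0.924 in edgeR, which placed Nos2 at rank 338 of 15706 genes by p. Leaving out 1 sample gave log2 fold changes from −0.92 without LPS + Tan replicate 4 to −0.53 without LPS + Tan replicate 1. The unadjusted p was below 0.05 in 16 of 19 alternatives, and the adjusted p ranged from 0.308 to 1.0 over them.

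Summed markers of the leukocytes that can express Nos2 overlapped between the groups. The summed level of 7 macrophage markers was 418 to 566 CPM with LPS and 488 to 601 CPM with LPS + Tan, and 6 of the 7 were higher in mean with LPS + Tan, with 1 of them, C1qa, at an unadjusted p below 0.05 in edgeR (42.0 against 51.0 CPM in mean, unadjusted p = 0.0155), as 2.87% of all tested genes were in that direction. For 4 monocyte markers the sum was 467 to 587 CPM with LPS and 307 to 670 CPM with LPS + Tan, and 2 of the 4 were higher in mean with LPS + Tan. For 6 neutrophil markers it was 3564 to 5148 CPM with LPS and 3396 to 5059 CPM with LPS + Tan, and all 6 were higher in mean with LPS + Tan. None of these markers was at 0, and the part of cell composition in the Nos2 difference was not tested.

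Gch1 encodes GTP cyclohydrolase, the rate-limiting enzyme of tetrahydrobiopterin synthesis (chr14:47153895-47189413, minus strand), and it was nearly constant in the LPS group. Its level was 39.6, 38.3, 38.6 and 38.8 CPM in the LPS samples and 37.9, 38.4, 36.6 and 45.3 CPM in the LPS + Tan samples. LPS + Tan replicate 4, which also had the highest Nos2 level of its group, stood above all the others. The log2 fold change of Gch1 was 0.03 (SE 0.084, 95% interval −0.16 to 0.21, edgeR adjusted p = 0.989). That interval lay above the estimate for Nos2 but overlapped the 95% interval of Nos2, −1.27 to −0.13. The difference between the Nos2 and the Gch1 changes was not tested.

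Arg1, the cytosolic arginase, lies on chr10:24915221-24927484 (minus strand, 8 exons) and was also the target of a quantitative PCR assay in the study. By that assay the study reported higher Arg1 RNA in lung with tangeretin. The assay's oligonucleotides are shown because they place that readout on the gene. Written 5′ to 3′ and wholly in lower case, since no base is singled out, they read as follows.
Arg-1 forward primer: ctccaagccaaagtccttagag
Arg-1 reverse primer: aggagctgtcattagggacatc
Matched to GENCODE M21 transcripts of GRCm38, each oligonucleotide of 22 bases has 1 site in an Arg1 transcript. The forward primer falls in the coding part of exon 1 (chr10:24927342-24927363) and the reverse primer in the coding part of exon 3 (chr10:24920738-24920759), which spans 185 bases of spliced transcript.

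In the RNA-seq data Arg1 was 35.3, 8.89, 30.1 and 21.1 CPM in the LPS samples and 38.9, 47.3, 31.6 and 30.3 CPM in the LPS + Tan samples. LPS replicate 2 held the lowest value by a wide margin, LPS replicate 1 lay above LPS + Tan replicates 3 and 4, and the groups overlapped. Mean Arg1 was 23.9 ± 11.6 CPM (SD, n = 4) with LPS and 37.0 ± 7.84 CPM (SD, n = 4) with LPS + Tan, a fitted fold of 1.55 (95% interval 0.915 to 2.63). The log2 fold change was 0.63 (SE 0.34), with an unadjusted p of 0.0937 and an adjusted p of 0.924 in edgeR, and the interval of the fold includes 1. The estimate was 0.35 when LPS replicate 2 was left out. Leaving out LPS replicate 1 gave 0.89, with an unadjusted p of 0.0312 and an adjusted p of 0.877 in edgeR, and no other of the 19 alternatives gave an unadjusted p below 0.05. The adjusted p ranged from 0.616 to 1.0 over the alternatives.

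Arg2, the mitochondrial arginase (chr12:79130777-79156301, plus strand), was 44.7, 49.3, 46.1 and 44.1 CPM in the LPS samples. In the LPS + Tan samples it was 39.6, 80.2, 35.6 and 52.2 CPM. The LPS samples were tightly grouped, whereas the LPS + Tan samples lay on both sides of them with replicate 2 far above. The log2 fold change of Arg2 was 0.17 (SE 0.22, 95% interval −0.31 to 0.66, edgeR adjusted p = 0.972), and without LPS + Tan replicate 2 it was −0.12. Exons of Arg2 overlap exons of Vti1b, a protein-coding gene on the opposite strand with a mean of 2558 reads, so without strand in the counting some reads could belong to either gene.

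The balance of Nos2 to Arg1 was set out sample by sample on the scale of FPKM, the fragments of a gene scaled to library size and to gene length. The ratio of Nos2 FPKM to Arg1 FPKM was 0.729, 4.28, 1.25 and 1.32 in the LPS samples and 0.323, 0.515, 0.450 and 0.938 in the LPS + Tan samples. Nos2 was thus the higher of the pair in 3 of 4 LPS samples and in 0 of 4 LPS + Tan samples. The median ratio was 1.28 with LPS and 0.483 with LPS + Tan, and the groups overlapped because LPS replicate 1 lay below LPS + Tan replicate 4. The mean log2 ratio was lower by 1.55 in the LPS + Tan group, beside SDs of 1.08 (LPS) and 0.642 (LPS + Tan). Without LPS replicate 2, whose Arg1 level was the lowest, the log2 difference was −1.04. These values are a description, since both genes were chosen with their levels known.

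**Figure D2:**
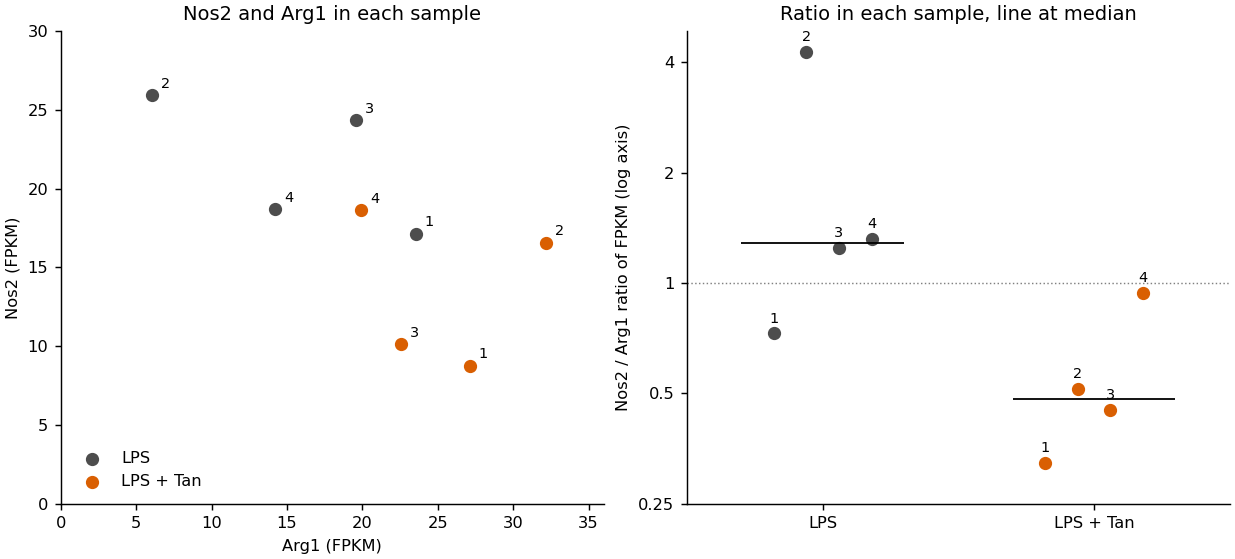
Left, Nos2 FPKM against Arg1 FPKM, each point a sample of the LPS or LPS + Tan group. Right, the ratio of Nos2 to Arg1 FPKM per sample on a log axis with the dotted line at 1 and the bar at the group median, 1.28 for LPS and 0.483 for LPS + Tan; LPS replicate 2 stands alone at 4.28.

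Odc1, the rate-limiting enzyme of polyamine synthesis (chr12:17544794-17551505, plus strand), had the widest spread of the members in the LPS + Tan group by SD in CPM. It was measured at 142, 154, 211 and 144 CPM in the LPS samples and at 76.6, 179, 87.1 and 114 CPM in the LPS + Tan samples. LPS + Tan replicates 1, 3 and 4 lay below every LPS sample, and replicate 2 lay above 3 of the LPS samples. Means were 163 ± 32.6 CPM with LPS and 114 ± 46.2 CPM with LPS + Tan (SD, n = 4 each). The log2 fold change was −0.51 (SE 0.25, 95% interval −1.06 to 0.047, edgeR unadjusted p = 0.0688, adjusted p = 0.924). Its unadjusted p was below 0.05 in 6 of 19 alternatives, of which 5 used all samples (DESeq2, no filter, the likelihood ratio test, limma-voom and the replicate block). Without LPS + Tan replicate 2 it was −0.81 with an unadjusted p of 0.00128 and an adjusted p of 0.236 in edgeR, the lowest of a range that reached 1.0 over the alternatives.

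LPS + Tan replicate 2 was the highest of its group for Odc1, Arg2, Arg1 and Slc7a2, and the lowest for Ddah2. Relative to the mean of the other 3 LPS + Tan samples, its level was 1.94 times as high for Odc1 and 1.89 for Arg2. The ratio was 1.41 for Arg1, 1.39 for Slc7a2 and 0.723 for Ddah2. For Nos2 it was 1.33, but LPS + Tan replicate 4 was higher still (82.6 against 71.0 CPM). The outlier check described below flagged replicate 2 for Cav1 alone, which is not a member. LPS + Tan replicate 2 had the lowest summed monocyte marker level (307 CPM) and the lowest summed neutrophil marker level (3396 CPM) of the 8 samples. The single markers were divided. S100a8, S100a9, Csf3r, Ccr2, Fcgr1 and Plac8 were at their lowest of the 8 samples there, whereas Ly6g, Mmp9, Cxcr2 and Ly6c2 were not. Ly6g was the highest of its group at 22.4 CPM. The total count of replicate 2 lay within the range of the others. The part of these marker levels in its arginine enzyme levels was not tested.

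Ddah2, a gene of the dimethylarginine dimethylaminohydrolase family (chr17:35059035-35062095, plus strand), was the member with the smallest p. The activity of its product on methylarginines was not measured here. The 250 bases upstream of its start are shown because Ddah2 is the 1 member whose groups did not overlap. The sequence is that of RefSeq on GRCm38.p6, chr17:35058785-35059034, plus strand, and overlaps no exon. Capitals mark GGG followed after any 5 bases by CC, a loose form of the site bound by NF-kB, a transcription factor that LPS activates.
Ddah2 promoter: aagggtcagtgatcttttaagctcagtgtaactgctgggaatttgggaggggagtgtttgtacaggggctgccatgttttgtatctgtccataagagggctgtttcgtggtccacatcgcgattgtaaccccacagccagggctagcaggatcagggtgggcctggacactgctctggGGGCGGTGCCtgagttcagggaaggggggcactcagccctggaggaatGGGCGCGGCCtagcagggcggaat
The marked matches begin 72 and 24 bases before the start. RefSeq promoters of 300 bases, 250 before to 50 after the start, were at hand for 5 of the 10 members, Ass1, Ddah1, Odc1, Gch1 and Ddah2. On either strand this NF-kB pattern occurred in 4 of these 5 and in 50.8% of 32851 promoters, so the match is common and is given as a description. The antioxidant response core TGACNNNGC occurred in 0 of 5 and in 12.4% of all promoters, the cyclic AMP response letters TGACGTCA in 0 of 5 and 1.79%, and the E-box CACGTG in 1 of 5, Ass1, and 7.15%.

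Across samples Ddah2 was 25.9, 21.6, 22.4 and 27.0 CPM with LPS and 39.4, 27.1, 33.0 and 39.9 CPM with LPS + Tan. Every LPS + Tan sample lay above every LPS sample, by a narrow gap between LPS replicate 4 and LPS + Tan replicate 2. Groups that did not overlap with LPS + Tan higher were seen for 1.58% of all tested genes. Mean Ddah2 was 24.2 ± 2.58 CPM (SD, n = 4) with LPS and 34.8 ± 6.07 CPM (SD, n = 4) with LPS + Tan, a fitted fold of 1.44 (95% interval 1.17 to 1.77). The log2 fold change was 0.52 (SE 0.13), with an unadjusted p of 0.00293, rank 52 of 15706 genes, and an adjusted p of 0.850 in edgeR. All 19 alternatives gave an unadjusted p below 0.05 and a log2 fold change between 0.45 and 0.63, while the adjusted p ranged from 0.139 to 1.0 over them.

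Ddah1, the other gene of the dimethylarginine dimethylaminohydrolase family, lies on chr3:145758675-145894277 (plus strand). It was 90.1, 65.0, 68.1 and 93.0 CPM in the LPS samples and 86.1, 88.1, 65.1 and 86.8 CPM in the LPS + Tan samples. High and low samples occurred in both groups, and the log2 fold change was 0.04 (SE 0.14, 95% interval −0.28 to 0.37, edgeR adjusted p = 0.989). The ratio of Ddah1 to Ddah2 in FPKM had a median of 1.53 with LPS and 1.03 with LPS + Tan, and the groups overlapped through LPS + Tan replicate 2 (1.54). Endothelial cells are a known site of Ddah2 expression. The summed level of 5 endothelial markers was 3077 to 3788 CPM with LPS and 3591 to 3953 CPM with LPS + Tan. Of these, 3 of 5 (Pecam1, Kdr and Tek) were higher in mean. At an unadjusted p below 0.05 in edgeR 2 of 5 (Kdr and Tek) were higher, as 2.87% of all tested genes were. Cdh5 (1324 against 1193 CPM) and Cldn5 (596 against 584 CPM) were lower in mean with LPS + Tan. The part of endothelial content in the Ddah2 difference was not tested.

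**Figure D3:**
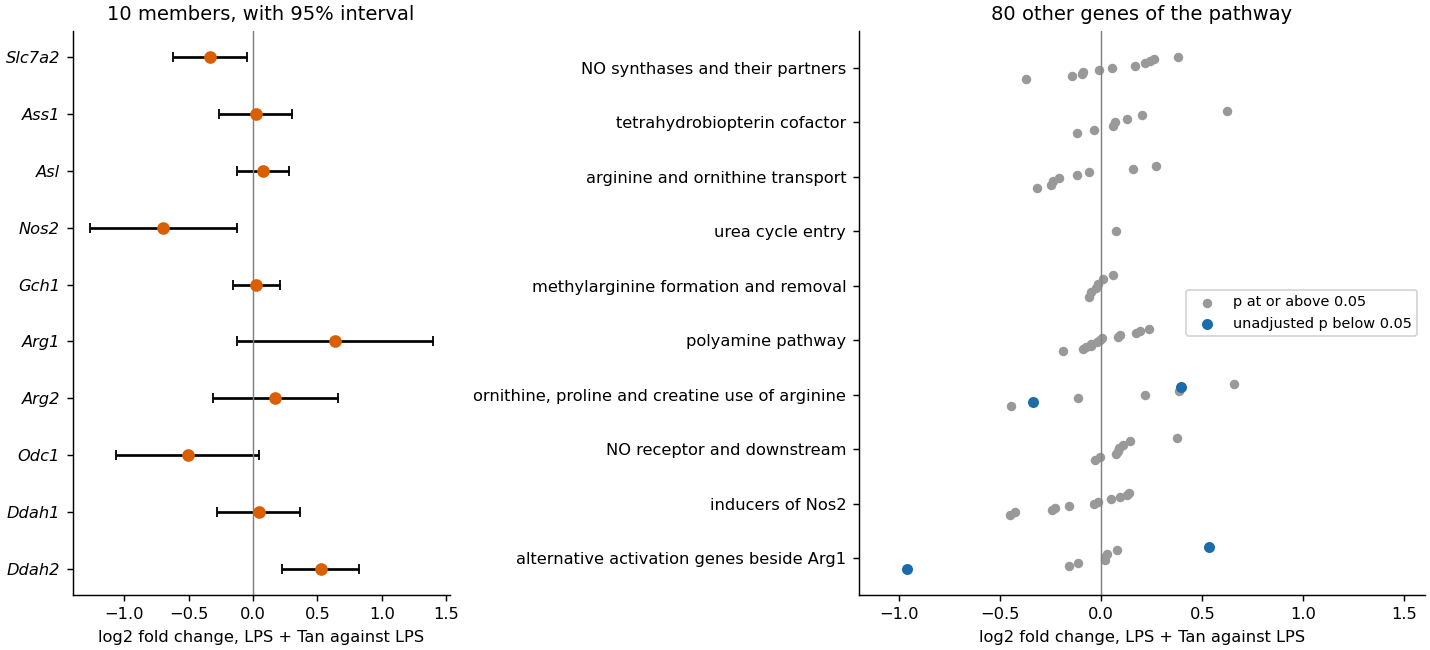
Log2 fold changes of LPS + Tan against LPS on the horizontal axes, left for the 10 members with 95% intervals and right for 80 other tested genes of the pathway, each point a gene, with rows for functional lists and blue for an unadjusted p below 0.05. The intervals of Slc7a2, Nos2 and Ddah2 exclude 0, and 4 of the 80 other genes are blue.

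Compared per gene length over all 8 samples, Odc1 had the highest level and Asl the lowest. Mean FPKM was 52.7 ± 16.2 for Odc1, 35.2 ± 4.46 for Ass1, 34.5 ± 9.53 for Arg2, 20.6 ± 7.95 for Arg1 and 18.7 ± 2.72 for Ddah1 (SD, n = 8). It was 17.5 ± 6.01 for Nos2, 14.6 ± 3.68 for Ddah2, 14.1 ± 0.741 for Gch1, 7.87 ± 1.37 for Slc7a2 and 6.31 ± 0.424 for Asl. This order pools the groups, and the place of Nos2 differed between them. With LPS, mean Nos2 (21.5 FPKM) was above Ddah1 (18.2) and Arg1 (15.8), whereas with LPS + Tan it (13.5 FPKM) was below Arg1 (25.4), Ddah1 (19.3), Ddah2 (17.4) and Gch1 (14.4). Only at the step from Gch1 to Slc7a2 did the ranges of neighbours in this order not overlap. Arg2 was above Arg1 in 8 of 8 samples although their ranges overlapped, and the order of Ddah2 and Gch1 varied, with Ddah2 above in 3 of 8 samples. Length matters here, since the values imply 9067 bases for Slc7a2 and 1417 for Arg2, so that Slc7a2 exceeded Arg2 in mean CPM but not in FPKM.

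**Figure D4:**
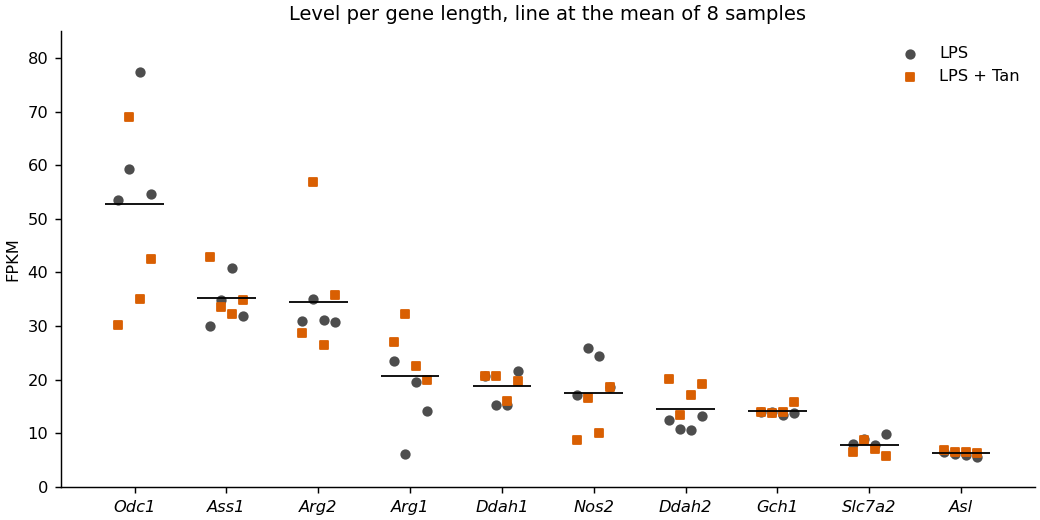
FPKM of the 10 members in each sample, ordered from left to right by the mean of the 8 samples (line), with points for LPS and squares for LPS + Tan. Odc1 is highest at a mean of 52.7 and Asl lowest at 6.31, and the points of Gch1 are the most tightly grouped relative to their level.

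Covariation of Nos2 with its partners was examined over the 8 samples in log2 CPM for 4 relations. With Arg1, Pearson's r was −0.53 (exact permutation p = 0.181, adjusted 0.362) and Spearman's rho was −0.81 (exact permutation p = 0.0218, adjusted 0.0871). On the FPKM scale the rank correlation was −0.86 with an adjusted exact permutation p of 0.0429, so its side of the 0.05 threshold depends on the scale. Without LPS + Tan replicates 1 and 3, the samples farthest from the median of Nos2, r was −0.70, without LPS replicate 2 it was −0.33, and with each group's mean subtracted it was −0.23. The relation in the pooled samples was therefore weaker once the group means were removed, and with 4 samples in a group it was not computed within groups. With Slc7a2, r was 0.55 (exact permutation p = 0.164, adjusted 0.362) and rho 0.40 (exact permutation p = 0.327, adjusted 0.436). For Slc7a2, r was 0.058 without the same 2 samples and 0.12 with group means subtracted. It was 0.39 without LPS + Tan replicate 1 alone, and 0.80 without LPS + Tan replicate 4 (exact permutation p = 0.0335, adjusted 0.134). With Gch1, r was 0.36 (exact permutation p = 0.401, adjusted 0.535) and rho 0.45 (exact permutation p = 0.267, adjusted 0.436), with r −0.20 without the 2 samples. For Gch1, r was 0.17 without LPS + Tan replicate 3 alone, 0.62 without LPS + Tan replicate 4 and 0.62 with group means subtracted. With Ass1, r was 0.052 (exact permutation p = 0.915, adjusted 0.915) and rho 0.29 (exact permutation p = 0.501, adjusted 0.501), with r 0.69 without the 2 samples. After adjustment none of the 4 relations passed in log2 CPM, and each holds 8 samples of near equal depth.

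The genes whose levels followed Nos2 most closely over the 8 samples, of 15659 compared by Pearson's r of log2 CPM, were Sox2ot (0.99), Ugcg (0.98), Gna13 (0.98), Pfkfb3 (0.98) and Iscu (0.98). Pfkfb3, an activator of glycolysis, ran from 505 to 654 CPM with LPS and was 215, 456, 257 and 530 CPM in LPS + Tan replicates 1 to 4, with the same low samples as Nos2. Sox2ot was scarcely detected, at 0.123 to 0.329 CPM. Those nearest to Arg1 were Gm13012 (0.93), LOC115489886 (0.92), Xpnpep1 (0.92), Lpar2 (0.92) and Zdhhc18 (0.91), and Gm13012 shared the very low LPS replicate 2 at 0.0760 CPM. These lists are descriptions over 8 samples drawn from many genes.

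The wider pathway was read from lists by its counts. Of 88 further genes of arginine, NO and polyamine metabolism and their regulators, 86 were in the tables and 80 were tested. At an unadjusted p below 0.05 in edgeR, 2 of these 80 were higher and 2 were lower (5.0%, against 5.12% of all tested genes), and none passed adjustment. Their median log2 fold change was 0.0061, with 41 of 80 above 0.

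Among the other NO synthases, endothelial Nos3 was 26.2 ± 9.89 CPM with LPS and 20.2 ± 7.41 CPM with LPS + Tan (log2 fold change −0.37, edgeR unadjusted p = 0.225). The Nos3 value was −0.086 without LPS replicate 3, −0.23 without LPS + Tan replicate 1 and −0.64 without LPS + Tan replicate 2. Neuronal Nos1 had only 1 to 10 reads in any sample and was not tested. Of the 11 tested synthase partners and synthases 0 passed an unadjusted p of 0.05, the nearest being Cav1, the caveolar protein that holds Nos3 inactive, at 507 ± 112 against 659 ± 134 CPM (log2 fold change 0.38, or 0.24 without LPS replicate 3, edgeR unadjusted p = 0.0803 with all samples). The most abundant of that list per length, the chaperone Hsp90ab1, had a log2 fold change of 0.24. In the tetrahydrobiopterin list 0 of 7 genes passed. Gchfr, the feedback regulator of Gch1, was 0.392 against 0.605 CPM (log2 fold change 0.62, edgeR unadjusted p = 0.113, and 0.27 on the log2(FPKM + 1) scale), and Qdpr, which regenerates the cofactor, had a log2 fold change of 0.20, and of 0.11 without LPS replicate 3 or 4, 0.12 without LPS + Tan replicate 4 and 0.35 without LPS replicate 1.

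For transport, 0 of 8 tested genes passed and 6 of 8 were below 0, where 7571 of all 15706 tested genes were below 0. Slc7a1, the constitutive arginine transporter, was 72.6 ± 5.85 against 61.2 ± 21.5 CPM (log2 fold change −0.25, edgeR unadjusted p = 0.238), and LPS + Tan replicate 2 was again high at 93.2 CPM. The Slc7a1 value was −0.52 without that sample and −0.14 without LPS + Tan replicate 4. Slc25a15, the mitochondrial ornithine carrier, was 7.71 ± 0.984 against 9.32 ± 0.592 CPM without overlap (log2 fold change 0.27, edgeR unadjusted p = 0.0542, adjusted p = 0.924). The broad amino acid transporter Slc6a14 had a log2 fold change of −0.12, which ran from −0.22 without LPS + Tan replicate 4 to −0.034 without LPS + Tan replicate 1. Otc, the only urea cycle entry gene tested, was below 1 CPM in both groups.

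The lists for methylarginine formation and removal and for the making, use and breakdown of polyamines gave 0 of 6 and 0 of 13 at an unadjusted p below 0.05. Log2 fold changes were −0.06 for Prmt5, −0.01 for Prmt1, 0.19 for Dohh and 0.003 for Sat1, the last being 302 CPM in mean in both groups. In the list for ornithine, proline and creatine, 1 of 7 was higher and 1 of 7 was lower at an unadjusted p below 0.05 in edgeR, where 2.87% of all tested genes were higher and 2.25% were lower. Prodh, which begins proline breakdown, was 9.43 ± 1.79 against 12.4 ± 0.896 CPM (log2 fold change 0.40, edgeR unadjusted p = 0.0190). Aldh18a1, which makes the precursor of proline and ornithine from glutamate and was named after its values were seen, was 23.6 ± 2.13 against 18.7 ± 3.79 CPM (log2 fold change −0.34, edgeR unadjusted p = 0.0350). Oat, the abundant ornithine aminotransferase, had a log2 fold change of −0.12, and of −0.046 without LPS replicate 1. Downstream of NO, 0 of 8 genes passed, with log2 fold changes of 0.37 for the guanylate cyclase subunit Gucy1a2, which was 0.16 without LPS replicate 3, and 0.09 for Vasp, a substrate of the cyclic GMP-dependent kinase. The Vasp value ran from 0.025 without LPS replicate 2 to 0.17 without LPS replicate 3.

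The stability of the member values across analyses was read from 19 alternatives. Of 190 member values 183 kept the direction of the reported fit, and the 7 with the other direction belonged to Arg2, Ass1, Gch1 and Ddah1. No member had an adjusted p below 0.139 in any of them.

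**Figure D5:**
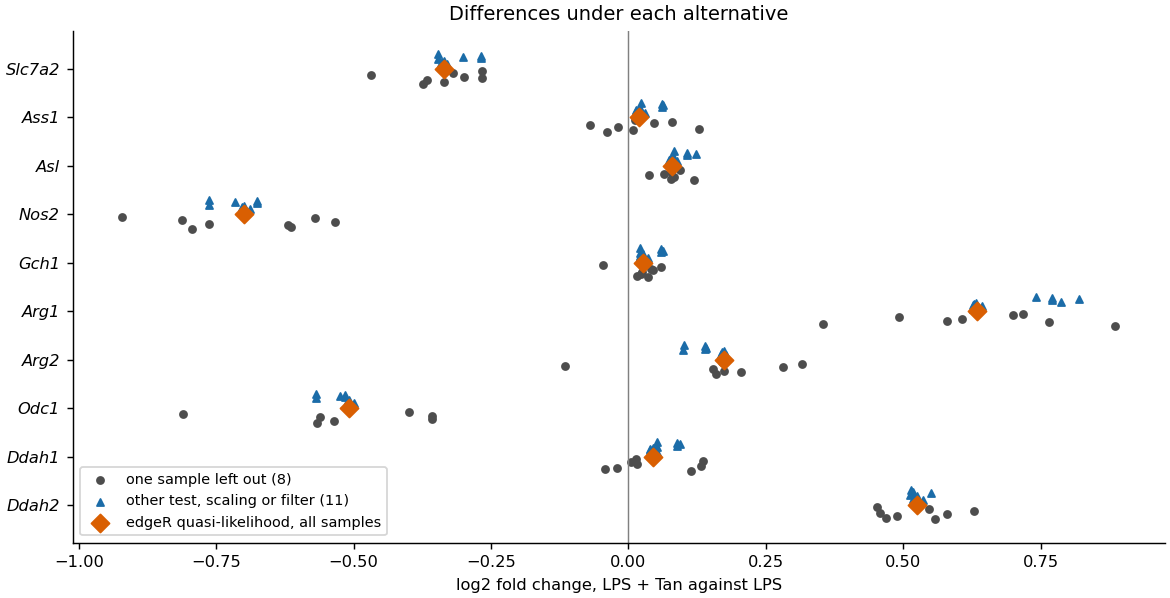
Log2 fold change of each member under the reported edgeR fit (diamond), under 11 other tests, scalings or filters (triangles) and with 1 of the 8 samples left out (circles). The values of Nos2, Slc7a2 and Odc1 stay below 0 and those of Ddah2, Arg1 and Asl stay above 0, with Ddah2 between 0.45 and 0.63.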

How the data were processed

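RNA-seq was measured in 8 lung samples, 4 per group by GEO's labels. The authors deposited a table of read counts per gene and a table of FPKM values per gene, both as whole-series tables with 24584 genes. Their processing notes name the genome build GRCm38 (mm10), while the aligner, the counter and the use of strand are not stated in those sources. The study's methods name VAHTS library reagents and TRIzol, whereas the labels name other kits. The FPKM values, made by the authors from the counts, imply 1 fixed length per gene in every sample.

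Counts were tested with edgeR 4.0.16 (R 4.3.3), by the quasi-likelihood test with filterByExpr, TMM scaling and all 8 samples, and p-values were adjusted by Benjamini-Hochberg over 15706 genes. Depth was 38895654 to 39931970 reads per sample. SE is the absolute log2 fold change divided by the square root of F, and intervals are at 95%. FPKM values were used for levels, ratios and, as log2(FPKM + 1) with limma 3.58.1, as an alternative. Other alternatives were DESeq2 1.42.0, limma-voom, the likelihood ratio test, RLE and upper-quartile scaling, no filter, at least 1 CPM in 4 samples, FPKM + 0.1, a replicate block and leaving out each sample. The test scripts were tested on simulated data.

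The members, gene lists and tests were chosen with earlier results of these data known. Named genes were the 10 members, the gene with the lowest p and that with the highest mean FPKM in each list, Nos1, Nos3, Mrc1, Il10, Gchfr and Slc7a1 whatever their values, and the 5 genes with the highest correlation with Nos2 and with Arg1. Aldh18a1, Cd163, Irf1, C1qa, Kdr, Tek and the other single cell markers named were added after their values were seen. Some genes that the rule names are not reported here. Gene positions are from GENCODE M21 (GRCm38) and promoters from RefSeq (GRCm38.p6). Correlations used exact permutation tests over 40320 pairings. No column of the tables was left without a sample.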

Additional observations from a re-analysis of the deposited data

Results flagged for a closer look

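In 74 groups of 4 samples, the gap between an extreme sample and its nearest neighbour was compared with the range of the group, and 2 exceeded Dixon's 95% critical value, where chance gives about 1 in 20. Ddah1 in LPS + Tan replicate 3 was 65.1 CPM beside 86.1 to 88.1 CPM in the other 3 samples, a gap of 0.924 of the range of log2 CPM. Cav1 was lowest in LPS + Tan replicate 2, with a gap of 0.869 of the range. That sample was also the lowest of its group for Ddah2 and the highest for Odc1, Arg2 and Arg1.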

How the results depend on the processing

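The replicate numbers were shared by the groups, and the labels do not say that they pair samples. With group means subtracted, the correlations of same-numbered samples were 0.12, −0.031, −0.15 and 0.020. All pairings of an LPS with an LPS + Tan sample gave −0.21 to 0.22. Values this near 0 cannot show whether samples were paired, so both fits are given. With the replicate block 397 genes were higher and 429 lower at an unadjusted p below 0.05, none passed adjustment, and no call on a member after adjustment changed. Lower members at an unadjusted p below 0.05 were 3, by the addition of Odc1, with the block, DESeq2, no filter, the likelihood ratio test and limma-voom, where 2.73%, 2.08%, 2.31%, 2.32% and 2.49% of genes were lower. Genes past adjustment numbered 35 with DESeq2, 23 with the likelihood ratio test, 2 with limma on FPKM of all genes and 0 to 1 with a sample left out. The 102 genes past both thresholds became 224 with DESeq2, 418 with no filter, 41 with at least 1 CPM, 14 with log2(FPKM + 1), 40 with log2(FPKM + 0.1), 11 with FPKM of all genes and 75 to 238 with a sample left out. At an unadjusted p below 0.05, genes lower numbered 569 with no filter and genes higher 848 with FPKM of all genes. With log2(FPKM + 1), 644 genes were higher and 276 lower. With a sample left out, 268 to 820 were higher and 212 to 806 lower, both counts being lowest without LPS + Tan replicate 1 and highest without LPS + Tan replicate 2. Of members, 1 was lower with each of the 3 FPKM fits (1.76%, 1.73% and 1.7% of genes), and with a sample left out 0 to 3 were lower and 1 to 2 higher.

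With a sample left out, log2 fold changes that took the other sign ranged from −0.12 to 0.32 for Arg2, −0.070 to 0.13 for Ass1, −0.046 to 0.059 for Gch1, −0.043 to 0.14 for Ddah1, −0.51 to 0.44 for Otc, −0.17 to 0.021 for Prmt5, −0.072 to 0.035 for Prmt1, −0.084 to 0.073 for Sat1, −0.11 to 0.12 for Mrc1 and −0.42 to 0.28 for Il10. Otc was −0.18 with limma-voom and −0.11 with the block. Prmt1 was 0.027, 0.028 and 0.027 in the FPKM fits. Il10 was −0.068 with limma-voom, −0.013 with log2(FPKM + 0.1) and −0.047 with the block. Sat1 was −0.0018 with DESeq2, −0.0020 with RLE, −0.0024 with no filter, −0.00089 with at least 1 CPM, −0.0072 with limma-voom and −0.0080 with the block. Without a change of sign, Arg2 was 0.10 with limma-voom and with the block, and Gchfr was 0.27 and Gucy1a2 0.12 with log2(FPKM + 1). The correlation of Nos2 with Gch1 was −0.053 in FPKM and −0.20 without the 2 samples farthest from the median of Nos2, and that with Ass1 was −0.15 in FPKM and −0.30 to 0.68 with a sample left out. The cause of these shifts was not tested.

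The 95% intervals of Arg1, Odc1 and Arg2 included 0 in the reported fit with 4 samples per group. Each of these genes had at least 351 reads in every sample, and the lowest, Arg1 in LPS replicate 2, is the sample on which its value rests most. Whether tangeretin alters these genes without LPS cannot be read from these samples.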

Other observations

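Regulators of Nos2 and genes of alternative activation were read beside the members. Of 11 inducers of Nos2 such as cytokines, their receptors and transcription factors, 0 had an unadjusted p below 0.05 in edgeR, where 5.12% of all tested genes did, and 7 were below 0, as were 7571 of all 15706 tested genes. Irf1, an interferon-induced transcription factor that was named after its values were seen, was 664 to 735 CPM with LPS and 289 to 990 CPM with LPS + Tan (log2 fold change −0.43, edgeR unadjusted p = 0.215), and its log2 fold change was −0.95 without LPS + Tan replicate 4 and −0.23 without LPS + Tan replicate 1. LPS + Tan replicate 4, the highest of the 8 samples for Irf1, was also the highest of its group for Nos2 and Gch1. Ifngr2, with the lowest p of the list, had a log2 fold change of 0.14 (edgeR unadjusted p = 0.0983).

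Of 8 genes of alternative activation, 1 was higher and 1 was lower at an unadjusted p below 0.05 in edgeR, where 2.87% of all tested genes were higher and 2.25% were lower. Retnla, a secreted resistin-like protein, was 563 to 988 CPM with LPS and 244 to 547 CPM with LPS + Tan without overlap, a log2 fold change of −0.96 (edgeR unadjusted p = 0.00587, adjusted p = 0.922). Cd163, the haemoglobin scavenger receptor, named after its values were seen, was 9.75 ± 2.13 against 14.1 ± 3.69 CPM (SD, n = 4 each), a log2 fold change of 0.53 (edgeR unadjusted p = 0.0332, adjusted p = 0.924). Mrc1 had a log2 fold change of 0.03 and Il10 of 0.08, with Il10 at 12.3 CPM in LPS + Tan replicate 2. By quantitative PCR the study reported higher CD206 (Mrc1) and IL-10 RNA with tangeretin, in lungs not stated to be those sequenced.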
